A study of Mus musculus with 6 samples.

Results

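The genes described here encode the enzymes that make, recycle and interconvert purine and pyrimidine nucleotides, measured in control (sgCtrl) and *Uba6*-targeted (sgUba6) 4T1 cells. They were taken from a list of 40 gene symbols, of which 39 were found in the deposited expression table of 19255 genes, and *Gda* (guanine deaminase) was not analysed here. The 39 members fell into 12 genes of de novo purine synthesis, 5 of de novo pyrimidine synthesis and 22 of salvage, interconversion and control of the nucleotide pool. All 39 passed the filter of at least 0.5 FPKM (fragments scaled to exon length and to the size of the library) in at least 3 of the 6 libraries, and 12190 genes of the table did so.

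4T1 is a mouse mammary carcinoma line from the BALB/c background, and it was grown in RPMI 1640 with FBS. RNA of 3 libraries of control cells (labelled NTC, genotype WT, sgCtrl below) was set against that of 3 libraries of cells labelled KO (genotype UBA6 knockout, sgUba6 below). The study's methods say that *Uba6*, which encodes a ubiquitin-activating enzyme, was deleted in Cas9-expressing cells with guides carried by lentiCRISPR v2 and puromycin selection, and do not say whether the cells were a pool or 1 clone. The treatment text in the labels names the UBA6 guide for all 6 samples, those of genotype WT included. The study's reporting summary says of its results in general that they were repeated biologically, but no source used here says it of these libraries. If the 3 libraries of a group did not come from separate cultures, p-values measure only the spread between these libraries, which may be technical. *Uba6* itself was at 16.4, 16.4 and 17.0 FPKM in sgCtrl and at 10.87, 12.12 and 12.03 FPKM in sgUba6 libraries. The groups did not overlap, with the RNA 29.8% lower in sgUba6 libraries and still present in each, and the log2 fold change was -0.49 (limma, standard error 0.06, adjusted p = 0.000601).

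As background, a purine is built stepwise on an activated ribose, PRPP, until inosine monophosphate (IMP) is reached, from which separate branches lead to AMP and GMP. A pyrimidine ring is instead made first and then joined to PRPP to give UMP, from which CTP and the thymine nucleotides derive. Salvage enzymes return free bases and nucleosides to nucleotides at a lower cost, and kinases carry the monophosphates up to the triphosphates used for RNA and DNA. Proliferating tumour cells are known for drawing on all of these routes.

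Relative to sgCtrl cells, 19 of the 39 members were lower in sgUba6 cells and 4 were higher at an adjusted p under 0.05 (limma on log2(FPKM + 0.5), Benjamini-Hochberg adjustment over all genes tested), and 16 did not pass. Across all 12190 genes tested, 22.7% were lower, 24.7% were higher and 47.4% were called in either direction. Since all members lay at 5 FPKM or above on average over the libraries, the share among the 8656 genes at that level is also given, which was 26.9% lower and 23.6% higher. At an unadjusted limma p under 0.05, 19 members were lower and 9 higher, against 3172 lower and 3435 higher of the 12190 genes tested. The groups did not overlap for 30 of the 39 members (76.9%), against 57.6% of all genes tested and 60.9% of those at 5 FPKM or above. The median log2 fold change of the members was -0.12, and that of all genes tested was 0.01.

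The de novo sets and the salvage set had different counts. Of the 12 purine genes, 7 were lower and 1 higher, and their median log2 fold change was -0.33. Of the 5 pyrimidine genes, 4 were lower and none higher, with a median of -0.18. Of the 22 salvage and interconversion genes, 8 were lower (36.4%) and 3 higher (13.6%), with a median of 0.02. Over all genes tested, 22.7% were lower and 24.7% higher, with a median of 0.01. The summed level of the salvage set was 879 to 886 FPKM in sgCtrl and 780 to 816 FPKM in sgUba6 libraries. That of the purine set was 963 to 1015 and 940 to 959 FPKM. No test compared the sets with one another.

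**Figure D1:**
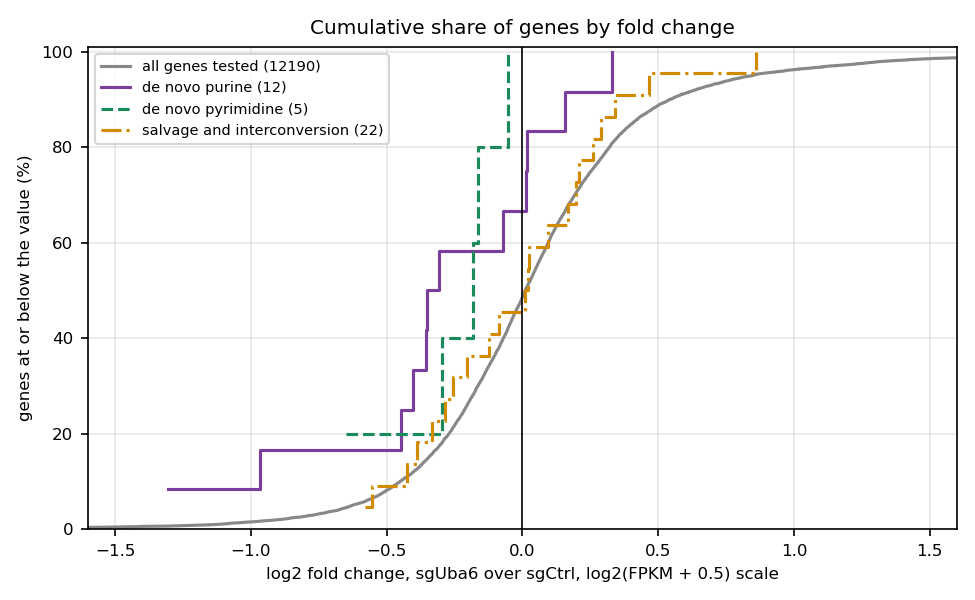
Cumulative share of genes (vertical axis, percent) at or below a given log2 fold change of sgUba6 over sgCtrl on the log2(FPKM + 0.5) scale (horizontal axis), for the 12 de novo purine, 5 de novo pyrimidine and 22 salvage and interconversion genes and for all 12190 genes tested. The purine genes have a median of -0.33 and the pyrimidine curve lies wholly below 0, while the salvage genes have a median of 0.02.

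Genes of the cell cycle moved in the same libraries. Of 22 proliferation genes, 15 were lower (68.2%) and 3 higher (13.6%), against 22.7% lower and 24.7% higher over all genes tested. *Pcna*, *Ccna2* and the *Mcm2* to *Mcm7* genes were among the lower ones. *Ccnb2*, *Ccne1* and *Foxm1* were higher (log2 fold changes 0.24, 0.39 and 0.11), and *Mki67*, *Ccnb1*, *Cdk1* and *Bub1* did not pass. The summed level of the 22 genes was 2133 to 2168 FPKM in sgCtrl and 1790 to 1837 FPKM in sgUba6 libraries. Their part in the member values was not tested. In bulk RNA, fewer cells of a type and less RNA per cell cannot be told apart. Epithelial markers, which define a carcinoma line, summed to 2734 to 2794 FPKM in sgCtrl and 2772 to 2836 FPKM in sgUba6 libraries, with 10 of 11 in the table, 3 higher and 2 lower. Of 13 leukocyte markers 5 were in the table and 3 were tested, and *Cd68* and *Cd14* were higher. *Csf1r*, also called higher, passed the filter only through the sgUba6 libraries. The 5 summed to 18.8 to 20.3 against 29.9 to 34.1 FPKM, while the defining marker *Ptprc* was near 0 (0.0065 and 0.0103 FPKM). Of 11 fibroblast and endothelial markers 5 were in the table and 2 were tested. *Pdgfra* was higher, and *Col1a1*, also called higher, passed the filter only through the sgUba6 libraries. The 5 summed to 3.17 to 3.34 against 5.54 to 6.76 FPKM, with *Dcn* at 0 and 0.0106 FPKM. The part of these markers in the member values was not tested.

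The first of the routes, PRPP supply, held the largest fold change of all members. *Prps2*, 1 of a pair of PRPP synthetase genes, was at 24.7, 24.5 and 25.8 FPKM in sgCtrl and at 9.58, 10.0 and 9.82 FPKM in sgUba6 libraries. Every sgUba6 library was therefore far below every sgCtrl library, by 60.8% on average. Its log2 fold change was -1.31 (standard error 0.05, 95% interval -1.42 to -1.19, adjusted p = 7.16e-06, limma). *Prps1*, the other PRPP synthetase gene, was at 52.3, 51.2 and 49.3 FPKM in sgCtrl and at 37.4, 37.9 and 36.4 FPKM in sgUba6 libraries. It fell by a smaller amount, 26.9%, again without overlap (log2 fold change -0.45, standard error 0.04, adjusted p = 0.000188, limma). Over the pair, the summed level was 75.1 to 77.0 FPKM in sgCtrl and 46.2 to 47.9 FPKM in sgUba6 libraries. Shared sequence touches *Prps1*, since 319 bases of it match the *Prps1l3* gene at 95.3% identity. *Prps1l3* had a mean of 31.5 FPKM and its difference did not pass (0.14 on the log2 scale, 95% interval -0.02 to 0.29).

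Both synthetase genes are on the X chromosome, *Prps1* at chrX:140456613-140476140 on the plus strand and *Prps2* at chrX:167346322-167382749 on the minus strand of GRCm38. The 250 bases before the *Prps2* start (chrX:167382750-167382999, minus strand, RefSeq on GRCm38.p6) are shown because this gene changed most. They hold 60.0% G and C and 4 CpG, against medians of 52.4% and 6 over 32851 RefSeq windows of all genes and of 60.0% and 15 over the 53 windows of members. The reference is not of the BALB/c strain, so a base may differ in 4T1 cells.
Prps2: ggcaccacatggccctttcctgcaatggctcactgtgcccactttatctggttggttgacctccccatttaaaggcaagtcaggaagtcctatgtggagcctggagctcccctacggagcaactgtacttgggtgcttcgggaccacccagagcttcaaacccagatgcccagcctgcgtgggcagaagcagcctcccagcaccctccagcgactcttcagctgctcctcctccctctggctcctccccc

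Next came the 6 genes of the purine ring, of which 4 were lower, 1 was higher and 1 did not pass. *Ppat*, the amidotransferase of the committed step, was at 18.7, 18.8 and 22.0 FPKM in sgCtrl and at 15.03, 16.61 and 16.06 FPKM in sgUba6 libraries. The groups did not overlap, and the gene was lower by 19.8% (log2 fold change -0.31, standard error 0.08, adjusted p = 0.0164, limma). Without the first sgUba6 library the adjusted p was 0.0536, no longer under the threshold, with a log2 fold change of -0.27. *Pfas*, the enzyme of the FGAM step, was at 18.03, 16.69 and 16.69 FPKM in sgCtrl and at 12.3, 13.4 and 12.8 FPKM in sgUba6 libraries. All sgUba6 values were thus below all sgCtrl values, with a log2 fold change of -0.40 (limma, standard error 0.06, adjusted p = 0.00137). *Adsl*, the lyase that acts in the ring and again on the way to AMP, was at 25.9, 21.5 and 23.4 FPKM in sgCtrl and at 19.2, 18.5 and 17.3 FPKM in sgUba6 libraries. It was lower without overlap, with a log2 fold change of -0.35 (limma, standard error 0.08, adjusted p = 0.00874).

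*Atic*, which closes the ring to give IMP, was at 121, 123 and 134 FPKM in sgCtrl and at 99.1, 99.3 and 97.4 FPKM in sgUba6 libraries. The sgUba6 libraries lay close together and below all sgCtrl libraries, with a log2 fold change of -0.35 (limma, standard error 0.05, adjusted p = 0.00107). *Gart*, which carries 3 activities of the early ring on a single protein, was at 68.6, 62.3 and 72.7 FPKM in sgCtrl and at 69.2, 69.2 and 66.6 FPKM in sgUba6 libraries. These groups overlapped, and the difference did not pass (log2 fold change 0.01, 95% interval -0.13 to 0.15).

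*Paics*, a carboxylase and synthetase of the middle of the pathway, was the exception. It was at 189, 197 and 198 FPKM in sgCtrl and at 235.3, 248.0 and 249.5 FPKM in sgUba6 libraries. All sgUba6 libraries were above all sgCtrl libraries, by 25.6% on average (log2 fold change 0.33, standard error 0.04, adjusted p = 0.000540, limma). *Paics* was the most abundant of the 6 ring genes, and their summed FPKM overlapped between groups, at 439 to 467 in sgCtrl and 450 to 465 in sgUba6 libraries.

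*Paics* and *Ppat* are neighbours on chromosome 5, in opposite directions. *Ppat* lies at chr5:76913249-76951578 on the minus strand and *Paics* at chr5:76951307-76967509 on the plus strand, so that their 5′ ends overlap by 272 exon bases, which is 8.7% of the *Paics* and 6.2% of the *Ppat* exon length. Although they share this stretch, the ratio of *Paics* to *Ppat* FPKM was 10.1, 10.5 and 8.99 in sgCtrl and 15.7, 14.9 and 15.5 in sgUba6 libraries. The ratio was higher in each sgUba6 library than in any sgCtrl library. No source used here says whether the counting took account of strand, and without it reads from the overlap cannot be assigned to either gene.

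**Figure D2:**
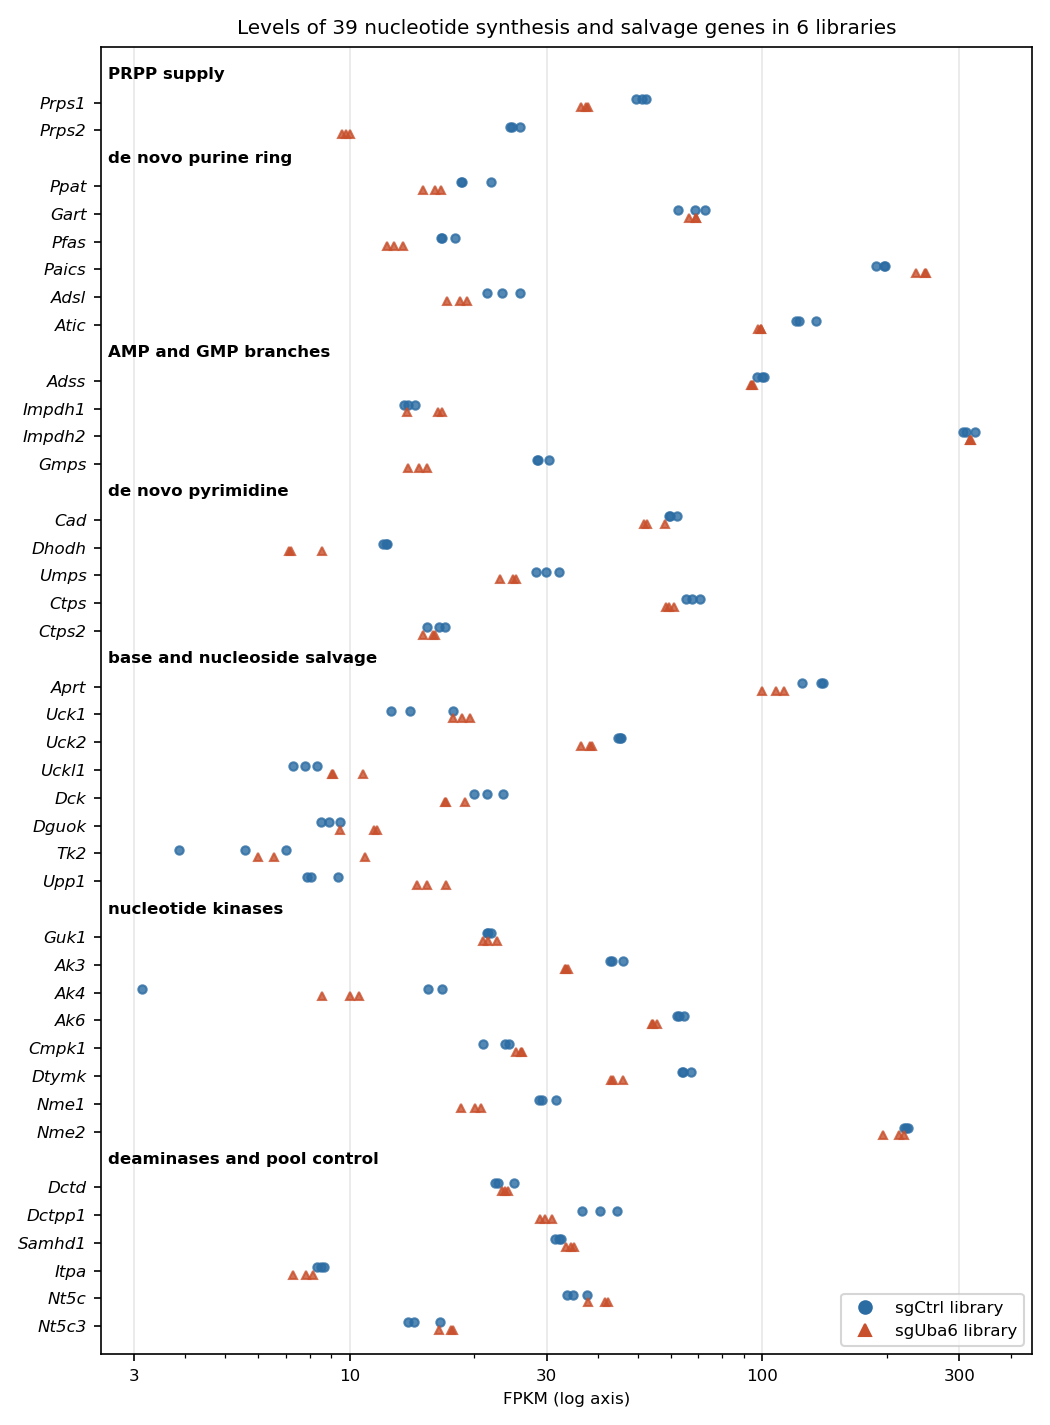
FPKM of the 39 members (horizontal log axis) in each of the 3 sgCtrl libraries (circles) and 3 sgUba6 libraries (triangles), grouped by role. *Prps2* (9.58 to 10.0 against 24.5 to 25.8 FPKM) and *Gmps* stand widely apart towards lower values, *Paics* and *Upp1* towards higher ones, and 1 sgCtrl library of *Ak4* at 3.14 FPKM lies far from the others.

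From IMP, the branch to GMP had 1 lower gene. *Gmps*, GMP synthase, was at 28.6, 28.4 and 30.3 FPKM in sgCtrl and at 13.9, 15.4 and 14.7 FPKM in sgUba6 libraries. Every sgUba6 library was far below every sgCtrl library, by 49.7% on average. Its log2 fold change was -0.97 (standard error 0.06, 95% interval -1.10 to -0.84, adjusted p = 2.88e-05, limma). *Impdh2*, the IMP dehydrogenase that feeds this step and the most abundant member, was at 307, 311 and 328 FPKM in sgCtrl and at 318, 320 and 318 FPKM in sgUba6 libraries. Those values overlapped, and the interval of the log2 fold change was -0.06 to 0.10 around 0.02. Under quantile normalization the log2 fold change of *Impdh2* was 0.11 (adjusted p = 0.0379, limma). The ratio of *Impdh2* to *Gmps* FPKM was 10.7, 10.9 and 10.8 in sgCtrl and 23.0, 20.7 and 21.6 in sgUba6 libraries, so that it was higher in every sgUba6 library. Sequence shared with *Impdh2-ps*, a pseudogene at 1.81 FPKM on average, leaves some of the *Impdh2* reads uncertain.

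The isoform gene *Impdh1* was at 13.6, 14.4 and 13.8 FPKM in sgCtrl and at 16.8, 16.4 and 13.8 FPKM in sgUba6 libraries. The third sgUba6 library lay among the controls, and the difference did not pass (log2 fold change 0.16, 95% interval -0.04 to 0.35, adjusted p = 0.159, limma). Without that library it was 0.24 (adjusted p = 0.0201, limma). On the branch to AMP, *Adss*, adenylosuccinate synthase, was at 96.95 to 100.9 FPKM in sgCtrl and 93.84 to 95.01 FPKM in sgUba6 libraries. Although these ranges did not overlap, the difference did not pass (log2 fold change -0.07, 95% interval -0.15 to 0.00, adjusted p = 0.109, limma).

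*Gmps* lies at chr3:63976106-64022579 on the plus strand of GRCm38. The bases before its annotated exon (chr3:63975893-63976105, plus strand, 213 bases, RefSeq on GRCm38.p6) are shown as the upstream sequence of the purine member that changed second most, and hold 47.4% G and C and 6 CpG.
Gmps: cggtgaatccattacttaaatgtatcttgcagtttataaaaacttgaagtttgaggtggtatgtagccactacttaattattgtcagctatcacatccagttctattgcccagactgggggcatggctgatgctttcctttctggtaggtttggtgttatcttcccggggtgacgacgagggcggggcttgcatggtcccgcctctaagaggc

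The pyrimidine route was lower at 4 of its 5 genes. *Dhodh*, the dehydrogenase of the inner mitochondrial membrane, was at 12.25, 12.34 and 12.03 FPKM in sgCtrl and at 7.11, 8.55 and 7.22 FPKM in sgUba6 libraries. It changed most of the 5, lower by 37.5% without overlap (log2 fold change -0.65, standard error 0.08, adjusted p = 0.000656, limma). *Umps*, which makes UMP in the last steps, was at 28.21, 29.98 and 32.14 FPKM in sgCtrl and at 25.3, 24.9 and 23.2 FPKM in sgUba6 libraries. Its groups did not overlap either (log2 fold change -0.29, standard error 0.06, adjusted p = 0.00756, limma).

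*Cad*, the protein of the first 3 steps, was at 59.4 to 62.2 FPKM in sgCtrl and at 51.5 to 58.0 FPKM in sgUba6 libraries. Its log2 fold change of -0.16 was close to the threshold (standard error 0.05, adjusted p = 0.0426, limma), and the call was lost in 8 of 14 other settings. These included leaving out the first, the second or the third sgCtrl library (adjusted p of 0.118, 0.075 and 0.0742, limma) or the second or the third sgUba6 library (0.122 and 0.121). *Ctps*, a CTP synthase gene, was at 65.2, 67.4 and 70.7 FPKM in sgCtrl and at 59.3, 61.0 and 58.3 FPKM in sgUba6 libraries. It was lower without overlap (log2 fold change -0.18, standard error 0.04, adjusted p = 0.0114, limma). *Ctps2*, the second CTP synthase gene, was at 15.37 to 17.03 FPKM in sgCtrl and at 15.04 to 16.08 FPKM in sgUba6 libraries, which overlapped (log2 fold change -0.05, 95% interval -0.19 to 0.08). In sum, the 5 genes stood at 183 to 191 FPKM in sgCtrl and 157 to 166 FPKM in sgUba6 libraries.

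**Figure D3:**
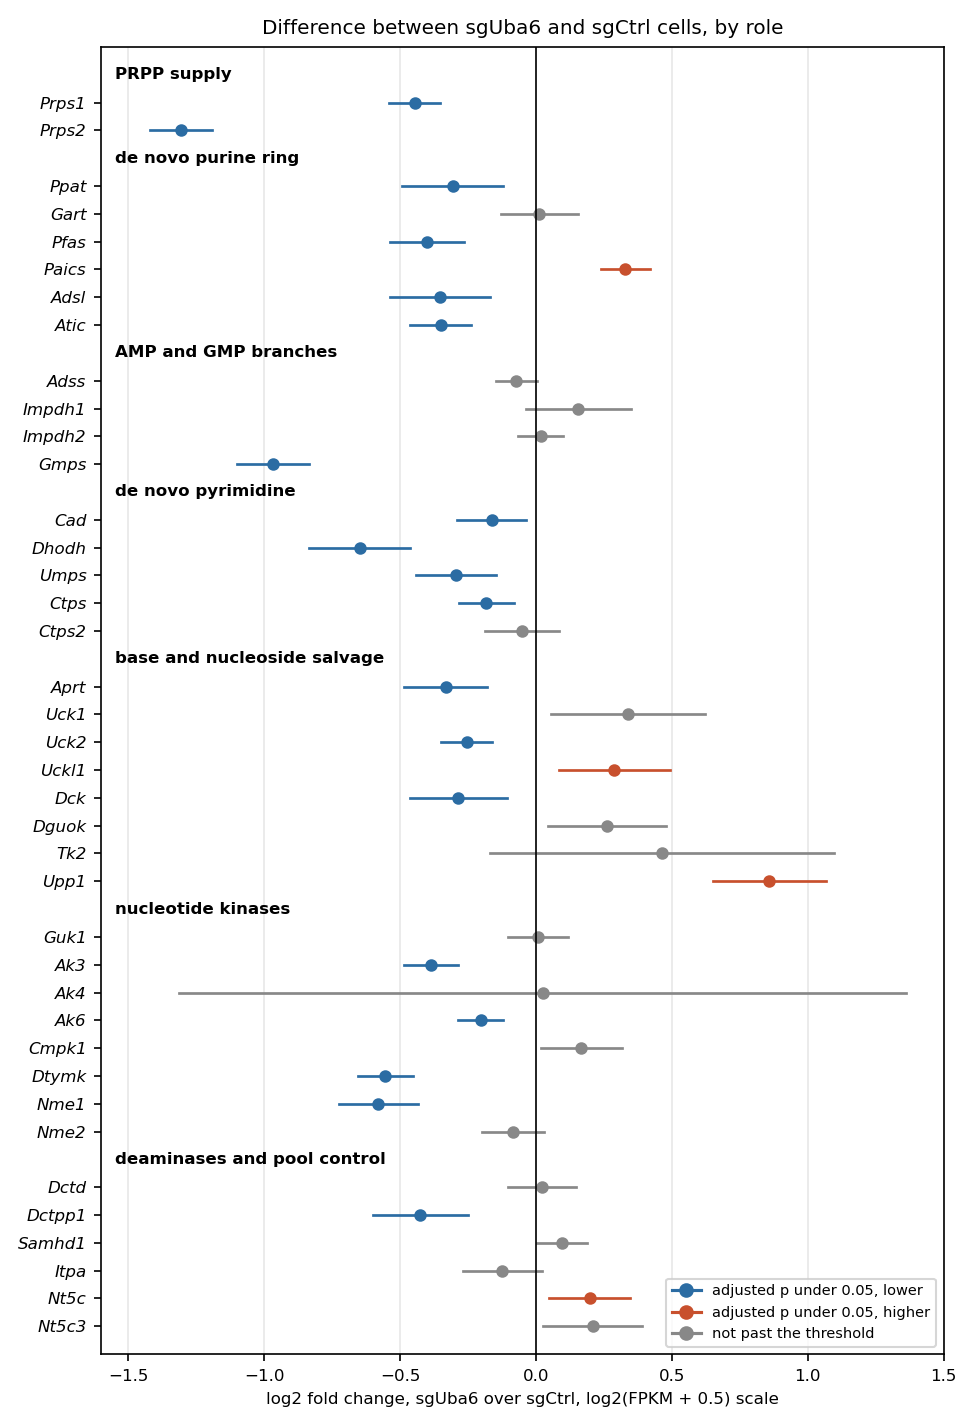
Log2 fold change of sgUba6 over sgCtrl for each of the 39 members on the log2(FPKM + 0.5) scale (horizontal axis; points, estimates; bars, 95% intervals from limma with 3 libraries per group), grouped by role and coloured by call. All 5 pyrimidine points lie below 0 with 4 past the threshold, *Prps2* (-1.31) and *Gmps* (-0.97) lie farthest to the left, *Upp1* (0.86) farthest to the right, and the *Ak4* interval is the widest.

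Among the 8 genes of base and nucleoside salvage, 3 were lower, 2 were higher and 3 did not pass. *Upp1*, uridine phosphorylase, was at 9.36, 7.90 and 8.07 FPKM in sgCtrl and at 17.1, 14.6 and 15.4 FPKM in sgUba6 libraries. Each sgUba6 library was above each sgCtrl library, 1.86-fold on average, the largest rise of any member. Its log2 fold change was 0.86 (standard error 0.09, 95% interval 0.65 to 1.07, adjusted p = 0.000325, limma). *Uckl1*, a uridine-cytidine kinase-like gene, was at 7.79, 7.28 and 8.32 FPKM in sgCtrl and at 9.06, 9.13 and 10.8 FPKM in sgUba6 libraries. It was higher without overlap (log2 fold change 0.29, standard error 0.09, adjusted p = 0.0308, limma), a call that was lost in 4 of 14 settings, among them those without the first or the second sgCtrl library or the third sgUba6 library (adjusted p of 0.0716, 0.0908 and 0.0799).

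The lower salvage genes were *Aprt*, *Uck2* and *Dck*. *Aprt*, which joins adenine to PRPP, was at 140, 124 and 139 FPKM in sgCtrl and at 99.5, 113 and 108 FPKM in sgUba6 libraries. Its groups did not overlap (log2 fold change -0.33, standard error 0.06, adjusted p = 0.0052, limma). *Uck2*, a uridine-cytidine kinase, was at 44.7, 45.2 and 45.5 FPKM in sgCtrl and at 36.3, 38.2 and 38.6 FPKM in sgUba6 libraries. That fall, too, was larger than the spread within either group (log2 fold change -0.26, standard error 0.04). *Dck*, the cytosolic deoxycytidine kinase, was at 20.0 to 23.6 FPKM in sgCtrl and at 17.0 to 19.0 FPKM in sgUba6 libraries (log2 fold change -0.29, adjusted p = 0.0189, limma). Without the first or the third sgUba6 library the adjusted p of *Dck* was 0.0603 or 0.0608.

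*Uck1*, the other uridine-cytidine kinase, was at 14.04, 17.75 and 12.60 FPKM in sgCtrl and at 17.8, 19.6 and 18.7 FPKM in sgUba6 libraries. The lowest sgUba6 value was just above the highest sgCtrl value, and the difference did not pass (log2 fold change 0.34, 95% interval 0.06 to 0.62, adjusted p = 0.0534, limma). The mitochondrial deoxynucleoside kinases *Dguok* (8.51 to 9.46 against 9.46 to 11.7 FPKM) and *Tk2* (3.86 to 7.03 against 5.996 to 10.88 FPKM) did not pass either. Their 95% intervals were 0.04 to 0.48 and -0.17 to 1.10, and *Tk2* spread by 28.9% and 34.2% (coefficient of variation) within the groups. Without a single library, *Uck1* (0.47, adjusted p = 0.00444 without the second sgCtrl library) and *Dguok* (0.35, adjusted p = 0.0105 without the second sgUba6 library) passed the limma test.

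*Upp1* lies at chr11:9118103-9136170 on the plus strand of GRCm38. The 250 bases before this start (chr11:9117853-9118102, plus strand, RefSeq on GRCm38.p6) are shown as those of the member with the largest rise, and they hold 55.6% G and C and 6 CpG. Capitals mark the letters TGAGTCA at position -140 from the start, which were picked out after the sequence had been read. TGAGTCA or its complement TGACTCA, an AP-1 type element, was found in the windows of 3 of 37 members (8.1%: *Upp1*, *Aprt* and *Nme1*) and in those of 5.9% of 27025 genes.
Upp1: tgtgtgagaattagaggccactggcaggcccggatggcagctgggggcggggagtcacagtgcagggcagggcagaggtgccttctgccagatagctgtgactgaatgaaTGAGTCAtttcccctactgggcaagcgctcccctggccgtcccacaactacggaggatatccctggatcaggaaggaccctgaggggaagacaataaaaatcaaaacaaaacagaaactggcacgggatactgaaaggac

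Of the 8 nucleotide kinase genes, 4 were lower and 4 did not pass. *Nme1*, a nucleoside diphosphate kinase, was at 28.8, 29.3 and 31.7 FPKM in sgCtrl and at 20.1, 20.8 and 18.6 FPKM in sgUba6 libraries. The groups were well apart, with the sgUba6 mean 33.7% lower (log2 fold change -0.58, standard error 0.06, adjusted p = 0.000365, limma). *Nme2*, its neighbour on chromosome 11 and the second most abundant member, was at 221, 223 and 225 FPKM in sgCtrl and at 221, 214 and 196 FPKM in sgUba6 libraries. Its ranges met without overlapping, and the difference did not pass (log2 fold change -0.08, 95% interval -0.20 to 0.03, adjusted p = 0.188, limma). Both genes share exon bases with the read-through gene *Gm20390*, which was at 0.473 FPKM on average. That gene was also called lower, at a low level (means of 0.775 and 0.172 FPKM, log2 fold change -0.99, adjusted p = 0.032, limma).

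*Dtymk*, the thymidylate kinase that supplies dTDP, was at 63.8, 67.1 and 64.0 FPKM in sgCtrl and at 43.4, 45.8 and 43.0 FPKM in sgUba6 libraries. All sgUba6 values lay below all controls, by 32.1% on average (log2 fold change -0.55, standard error 0.04, adjusted p = 9.5e-05, limma). *Ak3*, a mitochondrial GTP-AMP kinase, was at 42.8, 45.8 and 43.3 FPKM in sgCtrl and at 33.3, 33.3 and 33.8 FPKM in sgUba6 libraries. It too was lower without overlap (log2 fold change -0.39, standard error 0.04, adjusted p = 0.000396, limma), and 13.8% of its exon bases are shared with *Cdc37l1* (15.8 FPKM on average) on the opposite strand. *Ak6*, a nuclear adenylate kinase gene, was at 61.9 to 64.4 FPKM in sgCtrl and at 54.1 to 55.5 FPKM in sgUba6 libraries (log2 fold change -0.20, adjusted p = 0.00312, limma). The *Ak6* value is uncertain, because 56.5% of its exon bases are also annotated to *Taf9* on the same strand. *Taf9* was itself called lower, though its groups overlapped (log2 fold change -0.55, adjusted p = 0.0429, limma).

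*Ak4*, a further mitochondrial adenylate kinase gene, was at 16.7, 15.5 and 3.14 FPKM in sgCtrl and at 8.57, 10.5 and 10.0 FPKM in sgUba6 libraries. The third sgCtrl library was below all others and the first 2 were above all others, so the groups overlapped. The log2 fold change was 0.02 (95% interval -1.31 to 1.36, adjusted p = 0.978, limma) with that library and -0.71 (adjusted p = 0.00308, limma) without it. The direction of *Ak4* therefore rests on 1 library. *Guk1*, guanylate kinase, overlapped between groups with means of 21.67 and 21.82 FPKM (95% interval -0.10 to 0.12), and *Cmpk1*, UMP-CMP kinase, was at 21.04 to 24.33 against 25.4 to 26.2 FPKM (95% interval 0.02 to 0.31, adjusted p = 0.0644, limma, or 0.0498 without the second sgCtrl library).

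*Dtymk* lies at chr1:93792576-93801934 on the minus strand of GRCm38, and the 250 bases before its start (chr1:93801935-93802184, minus strand, RefSeq on GRCm38.p6) are shown as those of a lower member that holds an E-box. They contain 55.6% G and C and 22 CpG, and the capitals mark CACGTG, whose first base is at position -148 from the start.
Dtymk: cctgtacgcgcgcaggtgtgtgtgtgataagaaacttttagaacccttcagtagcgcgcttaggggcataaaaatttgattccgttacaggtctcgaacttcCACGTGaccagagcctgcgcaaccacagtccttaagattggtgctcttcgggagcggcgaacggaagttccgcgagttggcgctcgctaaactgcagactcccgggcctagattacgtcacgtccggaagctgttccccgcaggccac

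CACGTG, a palindrome that reads alike on both strands, is the E-box letters that MYC with MAX and other helix-loop-helix factors are known to bind, and nucleotide synthesis genes are known targets of MYC. It was searched in RefSeq windows from 250 bases before to 50 bases after each start, which were given for 37 of the 39 members. The letters were found in 6 of the 37 (16.2%), and in 8.1% of 27025 genes with such windows or 8.9% of 17492 protein-coding genes. A gene counted if any of its windows held them, and members had more windows per gene. By window, the shares were 13.2% of 53 member windows and 7.2% of all 32851 windows. Of the 6 holders, *Atic*, *Dtymk* and *Nme1* were lower, *Paics* was higher, and *Impdh2* and *Ak4* did not pass. Members without the letters were 14 lower, 3 higher and 14 not passed. A match is a description of these letters and not of a bound site. Of 4 genes written as E-box regulators, none of them a member, 3 were in the table, with 1 lower, 1 higher and 1 not passed. *Myc* was at 80.6, 82.2 and 76.5 FPKM in sgUba6 and at 93.7, 99.99 and 95.8 FPKM in sgCtrl libraries (log2 fold change -0.27, adjusted p = 0.0022, limma). *Mycl* went the other way, at 9.94 to 10.4 FPKM in sgUba6 and 5.32 to 6.11 FPKM in sgCtrl libraries (log2 fold change 0.79, adjusted p = 0.000152, limma). *Max* overlapped between groups and did not pass (log2 fold change -0.05, 95% interval -0.21 to 0.12). Their part in the member values was not tested.

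Stretches of 30 bases around the letters are shown for the holders other than *Dtymk* and *Ak4*, so that their flanks can be compared, with CACGTG in capitals (RefSeq on GRCm38.p6). They lie at chr1:71557137-71557166 (plus strand, *Atic*), chr5:76951087-76951116 (plus strand, *Paics*), chr9:108560314-108560343 (plus strand, *Impdh2*) and chr11:93968273-93968302 (minus strand, *Nme1*). Counted from the start site, the letters began at position -7 in *Atic*, -203 in *Paics*, -110 in *Impdh2* and -18 in *Nme1*. A window of another *Nme1* start held them at a separate site, at position -29, which is not shown. The *Paics* stretch is inside the annotated *Ppat* gene. Those of *Impdh2* (chr9:108560286-108565584) and *Nme1* (chr11:93956979-93968521) are inside their own annotated genes, and that of *Atic* spans the annotated *Atic* start (chr1:71557150).
Atic: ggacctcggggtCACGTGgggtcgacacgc
Paics: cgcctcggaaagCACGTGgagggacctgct
Impdh2: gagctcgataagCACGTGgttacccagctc
Nme1: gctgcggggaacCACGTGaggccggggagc

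Within the deaminases and pool control genes, 1 of 6 was lower and 1 higher. *Dctpp1*, which hydrolyses dCTP, was at 40.4, 44.4 and 36.5 FPKM in sgCtrl and at 29.8, 29.0 and 30.9 FPKM in sgUba6 libraries. Its groups did not overlap (log2 fold change -0.43, standard error 0.07, adjusted p = 0.00322, limma). *Nt5c*, a cytosolic 5′-nucleotidase gene, was at 34.8, 37.6 and 33.5 FPKM in sgCtrl and at 42.3, 41.6 and 37.8 FPKM in sgUba6 libraries. It was higher, with the third sgUba6 library just above the highest control (log2 fold change 0.20, standard error 0.06, adjusted p = 0.038, limma), and the call was lost in 6 of 14 settings, including those without the first or the third sgCtrl library or the first or the second sgUba6 library (adjusted p of 0.0954, 0.104, 0.111 and 0.104).

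The other 4 of these genes did not pass. *Dctd*, dCMP deaminase, was at 22.4 to 25.0 against 23.4 to 24.2 FPKM (95% interval of the log2 fold change -0.10 to 0.15). *Samhd1*, a dNTP hydrolase, was at 31.5 to 32.5 against 33.4 to 34.9 FPKM (0.00 to 0.19, adjusted p = 0.0851, limma). *Itpa*, which clears inosine triphosphate, was at 8.31 to 8.64 against 7.31 to 8.14 FPKM (-0.27 to 0.02), and 597 of its bases match *Itpa-ps1* (29.9 FPKM on average) at 99.3% identity, so its own level is uncertain. *Nt5c3*, a pyrimidine nucleotidase gene, was at 13.8 to 16.6 against 16.5 to 17.8 FPKM (0.03 to 0.39, adjusted p = 0.0605, limma). Without the third sgCtrl library *Nt5c3* was at 0.28 (adjusted p = 0.0122, limma).

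FPKM are per length, so the genes of an enzyme pair can be set side by side. Of *Prps1* and *Prps2*, *Prps1* took 67.9%, 67.7% and 65.7% of the summed FPKM in sgCtrl and 79.6%, 79.1% and 78.7% in sgUba6 libraries. The share was 12.1 points higher in sgUba6 on average, without overlap. *Uck1* took 23.9%, 28.2% and 21.7% of *Uck1* and *Uck2* in sgCtrl and 32.8%, 33.9% and 32.6% in sgUba6 libraries, 8.51 points higher and also without overlap. *Nme1* took 11.5%, 11.6% and 12.3% of *Nme1* and *Nme2* in sgCtrl and 8.36%, 8.85% and 8.65% in sgUba6 libraries. This share was lower in each sgUba6 library than in any control.

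For *Ctps* of *Ctps* and *Ctps2* the mean share was 80.6% in sgCtrl and 79.2% in sgUba6 libraries, without overlap, although the highest sgUba6 library (80.2%) was close to the lowest control (80.4%). *Impdh1* took a mean of 4.24% and 4.67% of *Impdh1* and *Impdh2*, with overlap. *Ak3* took 80.0% and 77.6% of *Ak3* and *Ak4*, with overlap, and this difference turned from -2.40 to 4.23 points without the third sgCtrl library. In an exact two-sided permutation test, 3 libraries against 3 cannot give a p below 0.1, and the 4 pairs without overlap reached 0.1 (0.15 after Benjamini-Hochberg adjustment over the 6 pairs). The exact p was 0.3 for *Impdh1* with *Impdh2* and 1.0 for *Ak3* with *Ak4*.

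**Figure D4:**
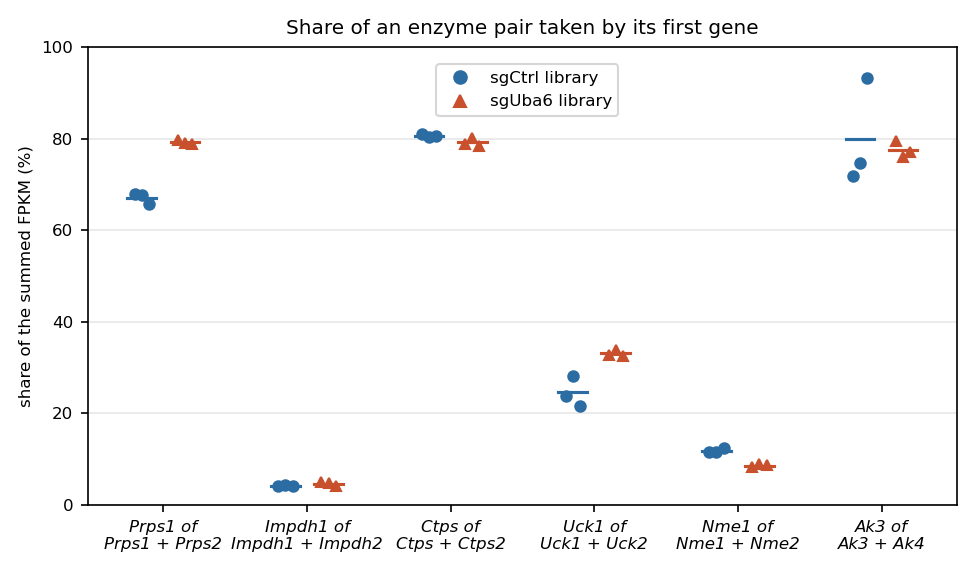
Share of the summed FPKM of an enzyme pair taken by its first gene (vertical axis, percent, from 0 to 100) in 3 sgCtrl libraries (circles) and 3 sgUba6 libraries (triangles), with the group mean as a line, for 6 pairs. The *Prps1* share moves from 67.1% to 79.2% on average and the *Uck1* share from 24.6% to 33.1%, and 1 sgCtrl library of *Ak3* and *Ak4* stands at 93.2%.

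Values of the members were close between libraries of a group, with a median coefficient of variation of 5.14% in sgCtrl and 4.36% in sgUba6. The depth of the libraries is unknown, as the table holds FPKM and not counts. FPKM sums were 352535 to 362762 per library, and correlations of log2 values between libraries were 0.991 to 0.992 within groups and 0.961 to 0.963 between groups. Sequence shared with another gene of at least 0.5 FPKM on average touched 8 members (*Prps1*, *Ppat*, *Paics*, *Impdh2*, *Ak3*, *Ak6*, *Samhd1* and *Itpa*), as 200 bases or more at 95% identity or more. Without these 8, 15 of 31 members were lower and 3 higher. *Gm20390* is below that mean but passed the filter, and without *Nme1* and *Nme2* as well, 14 of 29 were lower and 3 higher.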

How the data were processed

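RNA-seq values of 6 libraries of 4T1 cells were used, 3 sgCtrl and 3 sgUba6. The authors deposited FPKM for each gene in each library. The authors' methods name Cutadapt 1.9.1, HISAT2 2.1.0 on GRCm38, StringTie 1.3.3, Cuffdiff 1.3.0 for FPKM and DESeq2 1.30.1 for differential expression, with a directional library kit. A different set is listed in the submitters' processing notes, namely HISAT2, RSEM, Trimmomatic, CASAVA 1.8, FastQC and edgeR with mm10, and the labels name another kit. No source used here says which of these gave the FPKM. The deposited table also holds the authors' ratio of group means (fold change) and their p-value and q-value per gene, none of which was used. The authors' choice of DESeq2 needs counts, and the FPKM did not give back whole reads (28.7% to 30.6% of low values were within 0.1 of a whole number), so limma was used in its place. The per-sample columns all matched a sample.

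Genes that reached 0.5 FPKM in 3 or more of the 6 libraries were kept and transformed to log2(FPKM + 0.5). They were compared with limma 3.58.1 (eBayes with a trend, R 4.3.3), with Benjamini-Hochberg adjustment over all 12190 genes and a threshold of 0.05. The same fit was run on simulated data in which far fewer genes were changed than were called here. Such data cannot show how the fit performs with changes this widespread. A fold change on the log2(FPKM + 0.5) scale understates that of low genes. All 19255 gene IDs matched GENCODE M21 on GRCm38, used for positions and for shared sequence (blastn 2.17.0). Upstream sequences are those of RefSeq on GRCm38.p6, in which 37 members had a window. The members, gene lists and pairs were chosen with earlier results of these data known. Members past the threshold and both genes of each pair were named with every library's value where the change was at least 1.3-fold or the largest of its role, and the others by ranges. Beyond that rule, library values are also given for *Ppat*, *Gart*, *Paics*, *Adsl*, *Atic*, *Umps*, *Aprt*, *Uckl1*, *Nt5c* and pair genes with smaller changes, a choice made after their values were seen. Other pathway genes were named where called with at least 1.5-fold change. Some with smaller changes were added after their values were seen. Alternatives were added constants of 0.1 and 1, no filter, a filter of 1 FPKM, quantile normalization, scaling by the median of ratios, no trend, a replicate block, each library left out, and, chosen after seeing the data, counts without members that share sequence. Figures were drawn with matplotlib 3.10.9.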

Additional observations from a re-analysis of the deposited data

How the results depend on the processing

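The 39 members were refitted under 14 other settings. Of the 23 members called, 18 kept their call in each setting, and *Ppat*, *Cad*, *Uckl1*, *Dck* and *Nt5c* lost it in at least 1. Of the 16 not called, 8 were called in no setting. No scaling moved the median of all genes by more than 0.03 on the log2 scale. Single members moved by more under quantile normalization, in both directions. *Impdh2* went from 0.02 to 0.11 and was then called higher (adjusted p = 0.0379, limma). *Uckl1* went from 0.29 to 0.25 and lost its call (adjusted p = 0.0506, limma). The count of lower members stayed within 17 to 19 when single libraries were left out, but that of higher members, 4, was 7 under quantile normalization and ranged from 2 (without the first sgCtrl library) to 5. In the purine set, 2 instead of 1 were higher under quantile normalization, and 1 to 2 with single libraries left out (2 without the third sgUba6 library). In the salvage set, 5 instead of 3 were higher under quantile normalization, and 1 (without the first sgCtrl library) to 4 with single libraries left out. The cause of these changes was not tested. *Ak4* turned to -0.71 without the third sgCtrl library (range -0.71 to 0.42 with single libraries left out), and with it the *Ak3* share of its pair, whose difference ranged from -6.44 to 4.23 points when single libraries were left out.

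Replicate numbers are shared between the groups, but the deviations of same-numbered libraries were not correlated (r of 0.02, -0.06 and -0.02), so the numbers were not taken to pair the libraries. With the replicate number as a block, 6 members were higher and 19 lower (5 and 8 in the salvage set), the added ones being *Uck1* and *Dguok*. Depth is unknown, which limits what can be said of low genes such as *Tk2*.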

Other observations

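Further genes of the same pathways, written as a list of 54 of which 47 were in the table and 40 were tested, were 18 lower and 7 higher in sgUba6 cells, against 22.7% lower and 24.7% higher over all genes tested. Some of these reached the filter in 1 group only, among them *Xdh* (lower), through the sgCtrl libraries, and *Uox* (higher), through the sgUba6 libraries. All values that follow are from limma with 3 libraries per group. *Adk*, adenosine kinase, was at 35.5, 33.4 and 37.7 FPKM in sgCtrl and at 21.2, 20.2 and 19.2 FPKM in sgUba6 libraries, far apart without overlap (log2 fold change -0.80, adjusted p = 9.33e-05). *Tyms*, thymidylate synthase, was at 24.8, 18.5 and 17.9 FPKM in sgCtrl and at 12.3, 11.1 and 10.7 FPKM in sgUba6 libraries (log2 fold change -0.80, adjusted p = 0.00226). *Nt5c2*, a purine 5′-nucleotidase, was at 38.7 to 39.7 against 22.7 to 25.4 FPKM, and *Ampd2*, an AMP deaminase, was at 10.9 to 13.9 against 6.54 to 8.18 FPKM, both lower without overlap (log2 fold changes -0.70 and -0.66). The more abundant AMP deaminase gene *Ampd3* went the other way. It was at 21.4 to 22.3 FPKM in sgCtrl and 26.8 to 27.7 FPKM in sgUba6 libraries (log2 fold change 0.30, adjusted p = 0.00107). *Xdh*, which oxidizes hypoxanthine and xanthine, was at 0.569 to 1.11 against 0.119 to 0.222 FPKM (log2 fold change -0.96, adjusted p = 0.00373), tested only because of its sgCtrl level.

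The genes higher by at least 1.5-fold were *Cda*, *Nme4*, *Cmpk2* and *Uox*. *Cda*, cytidine deaminase, was at 6.85, 6.64 and 6.55 FPKM in sgCtrl and at 13.3, 11.3 and 12.3 FPKM in sgUba6 libraries (log2 fold change 0.83, adjusted p = 0.000139). *Nme4*, a mitochondrial nucleoside diphosphate kinase, was at 4.74 to 8.38 against 11.3 to 13.3 FPKM (log2 fold change 0.84), the opposite sign to that of *Nme1*. *Cmpk2*, a mitochondrial UMP-CMP kinase known as an interferon-induced gene, was at 0.834 to 1.12 against 1.93 to 2.49 FPKM (log2 fold change 0.81). *Uox*, urate oxidase, was at 0.0345 to 0.183 against 1.25 to 2.27 FPKM (log2 fold change 1.88), low in all 6 libraries and tested only because of its sgUba6 level. Of the other pathway genes, *Hprt*, which salvages hypoxanthine and guanine, was at 58.9 to 67.5 against 43.3 to 45.1 FPKM (log2 fold change -0.48), and the ribonucleotide reductase genes *Rrm1*, *Rrm2* and *Rrm2b* were lower with log2 fold changes of -0.40, -0.38 and -0.34. The remaining called higher genes, with smaller changes, were *Adssl1*, *Ampd3* and *Nt5e* (log2 fold changes 0.47, 0.30 and 0.28). These and the 4 lower genes before them were named after their values were seen, and not every lower gene is named.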
